A study of Zea mays with 6 samples.

Results

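Transcripts of 5 nuclear genes that build and maintain Rubisco were followed in leaves of the transgenic maize line L100 and of its wild type, the inbred Q319. The genes were picked by identifier from the 39628 gene models counted per library. They are a pair of Rubisco small subunit genes, ssu1 (GRMZM2G098520) and a gene listed only as rbcS (GRMZM2G113033), the assembly factor gene bsd2 (GRMZM2G062788), and the Rubisco activase genes rca1 (GRMZM2G162200) and rca3 (GRMZM2G162282). RNA was sequenced from leaves of field-grown plants at leaf stage 6, with 3 libraries of L100 and 3 of Q319. The labels give neither the transgene of L100 nor its promoter, and do not say how many plants or plots stand behind a library. P-values therefore measure the spread between these libraries, which may be in part technical. In total 6458248 to 7536583 counts were assigned to genes in the L100 libraries, against 8320337 to 9922468 in the wild type libraries.

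Rubisco fixes carbon dioxide in the Calvin-Benson cycle. Its large subunit is encoded in the chloroplast, and its small subunits are encoded in the nucleus and imported. In maize, a C4 plant, the enzyme accumulates in bundle sheath cells, while the surrounding mesophyll cells make the first C4 acids and pass them inward. BSD2 (bundle sheath defective2) is a chloroplast zinc-finger protein of the DnaJ kind that holds the large subunit during assembly. Activase is an ATP-driven remodelling protein that frees the active site of inhibitory sugar phosphates.

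Wild type replicate 3 stood apart from the other libraries. On the first principal component of log2 expression, which held 45.8% of the variance, it lay at -109, against 27.84 to 55.03 for the L100 libraries and -32.2 and 13.4 for the other wild type libraries. Fold changes of the 5 genes are therefore also given without it.

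None of the 5 genes passed the test between the lines. In edgeR's quasi-likelihood test over 18702 genes, adjusted p-values of the 5 ranged from 0.635 to 0.984, and unadjusted p-values from 0.118 to 0.920. Over all tested genes 0.834% were called at an adjusted p of 0.05. With DESeq2 none of the 5 was called either, and none had an unadjusted p under 0.05. The largest fold change, 1.92, was that of the weakly expressed activase gene rca3. The abundant activase gene and both small subunit genes had fold changes of 1.104 to 1.251, and bsd2 had one of 0.978.

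Both small subunit genes were among the most abundant transcripts of the leaf, and in both the groups overlapped. Values are CPM, counts scaled to a common library size with TMM factors. The gene ssu1 had 5951, 6752 and 4609 CPM in L100 replicates 1 to 3, against 6058, 5633 and 3893 CPM in wild type replicates 1 to 3. Replicate 3 was the lowest library in each group, and L100 replicate 2 was the highest of all. The means were 5770 ± 1082 CPM in L100 and 5195 ± 1147 CPM in wild type (SD, n = 3 each), a log2 fold change of 0.15 ± 0.34 (SE), with a 95% interval from -0.62 to 0.93 (edgeR adjusted p = 0.920). Without wild type replicate 3 the sign turned, to -0.02.

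The gene rbcS had 3542, 3915 and 2854 CPM in L100 replicates 1 to 3, against 3091, 3063 and 2090 CPM in wild type replicates 1 to 3. L100 replicates 1 and 2 lay above every wild type library, and L100 replicate 3 lay inside the wild type range. Its mean was 3437 ± 538 CPM in L100 and 2748 ± 570 CPM in wild type (SD, n = 3 each). The log2 fold change was 0.32 ± 0.32 (SE), with an interval from -0.41 to 1.06 and an edgeR adjusted p of 0.787, and was 0.16 without wild type replicate 3. These intervals leave room for an L100 level between 0.649 and 1.90 times that of wild type for ssu1, and between 0.751 and 2.08 times for rbcS.

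**Figure D1:**
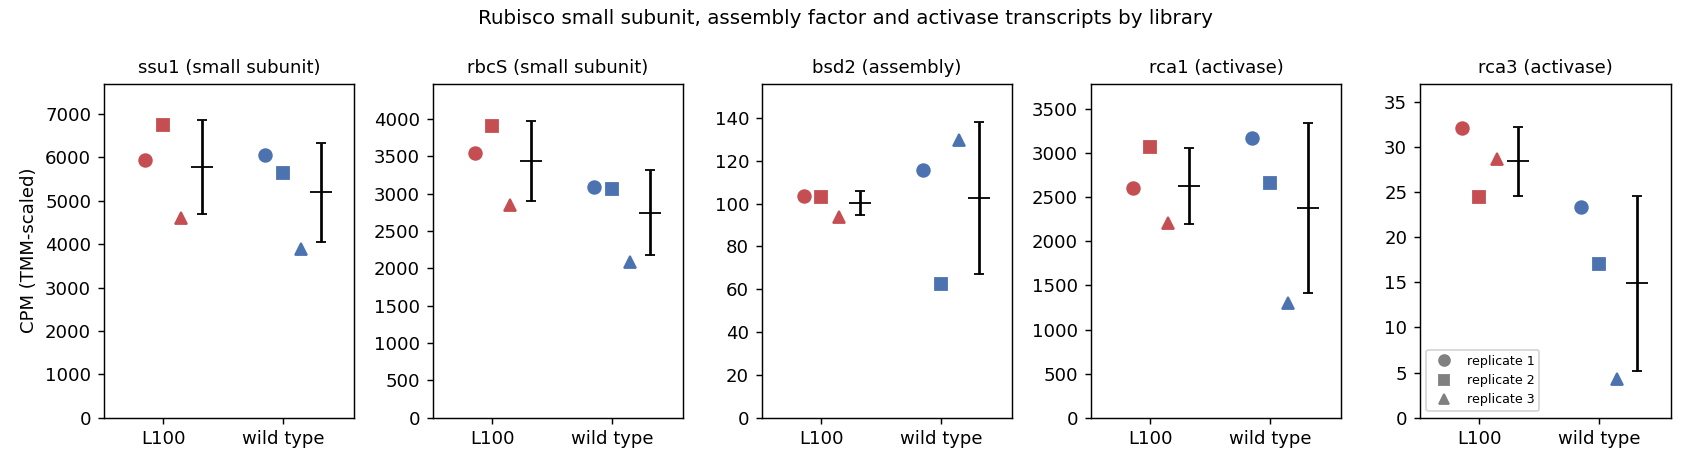
CPM (TMM-scaled, linear axis from 0) of the 5 genes in each library, L100 in red and wild type in blue. Marker shapes give the replicate number, and the black bar is the mean ± SD of 3 libraries. Among the 5 genes only rca3 has all L100 libraries above all wild type libraries, 24.5 CPM being the lowest in L100 and 23.4 CPM the highest in wild type.

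The assembly factor gene bsd2 was expressed far below the small subunits and had nearly equal means in both lines. It had 104, 103 and 93.9 CPM in L100 replicates 1 to 3, against 116, 62.4 and 130 CPM in wild type replicates 1 to 3. The L100 libraries lay close together, inside the range of the wild type libraries. The coefficient of variation was 5.49% among L100 libraries and 34.6% among wild type libraries. The means were 100.3 ± 5.50 CPM in L100 and 103 ± 35.5 CPM in wild type (SD, n = 3 each), with a log2 fold change of -0.03 ± 0.32 (SE), an interval from -0.77 to 0.70 and an edgeR adjusted p of 0.984. The direction depended on single libraries, with 0.17 without wild type replicate 3 and -0.28 without wild type replicate 2.

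Among the activase genes followed here, rca1 held nearly all counts. It had 2610, 3071 and 2203 CPM in L100 replicates 1 to 3, against 3169, 2664 and 1306 CPM in wild type replicates 1 to 3. The highest and the lowest library of all were both wild type, so the groups overlapped fully. Its mean was 2628 ± 434 CPM in L100 and 2380 ± 964 CPM in wild type (SD, n = 3 each), a log2 fold change of 0.14 ± 0.39 (SE) with an interval from -0.76 to 1.05 (edgeR adjusted p = 0.936). Without wild type replicate 3 it was -0.15, and without wild type replicate 1 it was 0.40.

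The activase gene rca3 is the direct neighbour of rca1, with 0 genes between them in the RefSeq annotation of a later maize assembly than that of the deposited counts. It had 32.2, 24.5 and 28.6 CPM in L100 replicates 1 to 3, against 23.4, 17.0 and 4.27 CPM in wild type replicates 1 to 3. All L100 libraries lay above all wild type libraries, which held for 7.69% of tested genes in this direction. The gap between the nearest libraries was within counting error: the 151 counts of L100 replicate 2 give a 95% exact Poisson interval of 20.8 to 28.8 CPM, and the 228 counts of wild type replicate 1 one of 20.5 to 26.7 CPM. Wild type replicate 3, with 51 counts, had an interval of 3.18 to 5.62 CPM, below those of the other 5 libraries.

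The mean of rca3 was 28.4 ± 3.83 CPM in L100 and 14.9 ± 9.74 CPM in wild type (SD, n = 3 each). The log2 fold change was 0.94 ± 0.53 (SE), 1.92-fold, with an interval from -0.30 to 2.17 and an edgeR adjusted p of 0.635. Without wild type replicate 3 the log2 fold change was 0.49 (edgeR adjusted p = 0.637). Without wild type replicate 1 it was 1.43, with an unadjusted edgeR p of 0.0370 and an adjusted p of 0.409. In that fit, which kept wild type replicate 3, 2057 genes had an unadjusted p under 0.05.

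Levels of different genes were compared on the deposited FPKM scale, which takes transcript length into account. In L100 the order was rbcS at 3769 ± 602 FPKM, ssu1 at 3751 ± 739 FPKM, rca1 at 1752 ± 295 FPKM, bsd2 at 195 ± 11.2 FPKM and rca3 at 19.8 ± 2.64 FPKM (SD, n = 3). In wild type it was ssu1 at 3270 ± 651 FPKM, rbcS at 2998 ± 620 FPKM, rca1 at 1566 ± 629 FPKM, bsd2 at 198 ± 67.7 FPKM and rca3 at 10.3 ± 6.68 FPKM (SD, n = 3). The means of the small subunit genes lay within their spread of each other in both lines. The order from the small subunits to rca1, bsd2 and rca3 was the same in every library, since the ranges over all 6 libraries did not overlap: 2282 to 4375 FPKM for the small subunit pair, 861 to 2070 FPKM for rca1, 122 to 251 FPKM for bsd2 and 2.96 to 22.4 FPKM for rca3.

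How the small subunit genes compare depends on the length used. On FPKM, ssu1 over rbcS was 1.02, 1.02 and 0.941 in L100 replicates 1 to 3, against 1.09, 1.083 and 1.103 in wild type replicates 1 to 3. With counts divided by the listed lengths, 513 bases for ssu1 and 609 bases for rbcS, it was 1.99, 2.05 and 1.92 in L100 replicates 1 to 3, against 2.33, 2.18 and 2.21 in wild type replicates 1 to 3. The deposited tables do not state which length entered FPKM. On both scales all L100 libraries lay below all wild type libraries. Both scales, and the count ratio of this pair given below, come from the same reads, so they are not separate evidence.

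Ratios of counts within a library do not depend on library scaling, and they separated the lines in 2 of 10 pairs of the 5 genes. The pairs share members, and for single genes on the CPM scale the lines did not overlap, in either direction, in 16.2% of those tested. The first was the share of rca3 relative to rca1. For rca3 the counts were 1.23%, 0.798% and 1.30% of those of rca1 in L100 replicates 1 to 3, against 0.739%, 0.638% and 0.327% in wild type replicates 1 to 3. All L100 libraries were above all wild type libraries, and L100 replicate 2 was nearest to wild type. The log2 ratio was -6.53 ± 0.39 in L100 and -7.54 ± 0.63 in wild type (SD, n = 3 each), a difference of 1.02. The two-sided exact permutation test gave p = 0.10, the smallest that 3 against 3 libraries allow, and 0.40 adjusted over the 10 pairs. Without wild type replicate 3 the difference was 0.66.

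The second pair was that of the small subunit genes. Counts of ssu1 were 1.68, 1.72 and 1.62 times those of rbcS in L100 replicates 1 to 3, against 1.96, 1.84 and 1.86 times in wild type replicates 1 to 3. The L100 libraries were all lower, and the replicates of each line lay close together. The log2 ratio was 0.74 ± 0.05 in L100 and 0.92 ± 0.05 in wild type (SD, n = 3 each), a difference of -0.17 (two-sided exact permutation p = 0.10, 0.40 adjusted over the 10 pairs). Since the lines do not overlap, leaving out 1 library cannot turn the sign. The difference then ranged from -0.20 to -0.15, and was -0.18 without wild type replicate 3. Small subunit genes form a family of similar sequences, as do activase genes. No source used here says how reads that map to more than 1 copy were counted, so the split of counts within each pair is uncertain. All counts of the 5 genes were whole numbers.

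In the other 8 pairs the lines overlapped. The exact permutation p of these pairs ranged from 0.20 to 0.90. Counts of rca1 were 43.9%, 45.5% and 47.8% of those of ssu1 in L100 replicates 1 to 3, against 52.3%, 47.3% and 33.5% in wild type replicates 1 to 3. The L100 libraries lay inside the wild type range. Counts of bsd2 were 1.74%, 1.53% and 2.04% of those of ssu1 in L100 replicates 1 to 3, against 1.91%, 1.11% and 3.33% in wild type replicates 1 to 3. Here too both ends of the range were wild type libraries.

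**Figure D2:**
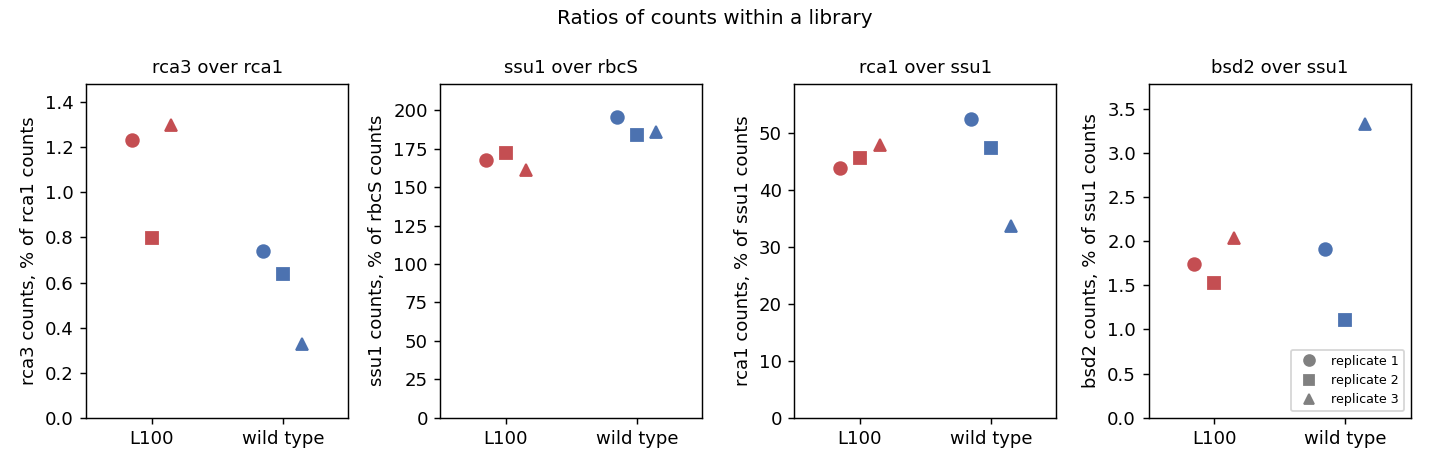
Counts of a gene as a percentage of the counts of another in the same library (linear axes from 0), L100 in red and wild type in blue, marker shapes giving the replicate. The lines are separate for rca3 over rca1 and for ssu1 over rbcS, where the highest L100 value is 172% and the lowest wild type value 184%, and overlap for rca1 over ssu1 and bsd2 over ssu1.

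Much of the spread of the 5 genes lay within wild type. Wild type replicate 3 was the lowest of all 6 libraries for ssu1, rbcS, rca1 and rca3, and the highest for bsd2; it was the lowest library for 23.9% of all tested genes and the highest for 24.9%. On the log2 scale it differed from the mean of the other wild type libraries by -0.59 for ssu1, -0.56 for rbcS, -1.15 for rca1 and -2.10 for rca3, and by 0.61 for bsd2. The median over all tested genes was 0.01. A value as low or lower was found in 2.95% of tested genes for rca3, 9.80% for rca1, 21.5% for ssu1, 22.4% for rbcS and 80.5% for bsd2.

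A gene with a role in making the large subunit departed in that library in the same direction as bsd2. RLSB (GRMZM2G087628), a protein that binds the mRNA of the large subunit, had 29.0, 22.9 and 42.3 CPM in L100 replicates 1 to 3, against 37.9, 19.2 and 61.5 CPM in wild type replicates 1 to 3. In bsd2 and RLSB alike, wild type replicate 3 was the highest and wild type replicate 2 the lowest of the 6 libraries. This order of extremes was found in 6.76% of tested genes, among them CesA-4 (GRMZM2G424832) and AS (GRMZM2G074589). RLSB was added to the genes looked at after the gene names had been seen. It did not pass the test between the lines, with a log2 fold change of -0.33 ± 0.44 (SE) and an edgeR adjusted p of 0.846.

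**Figure D3:**
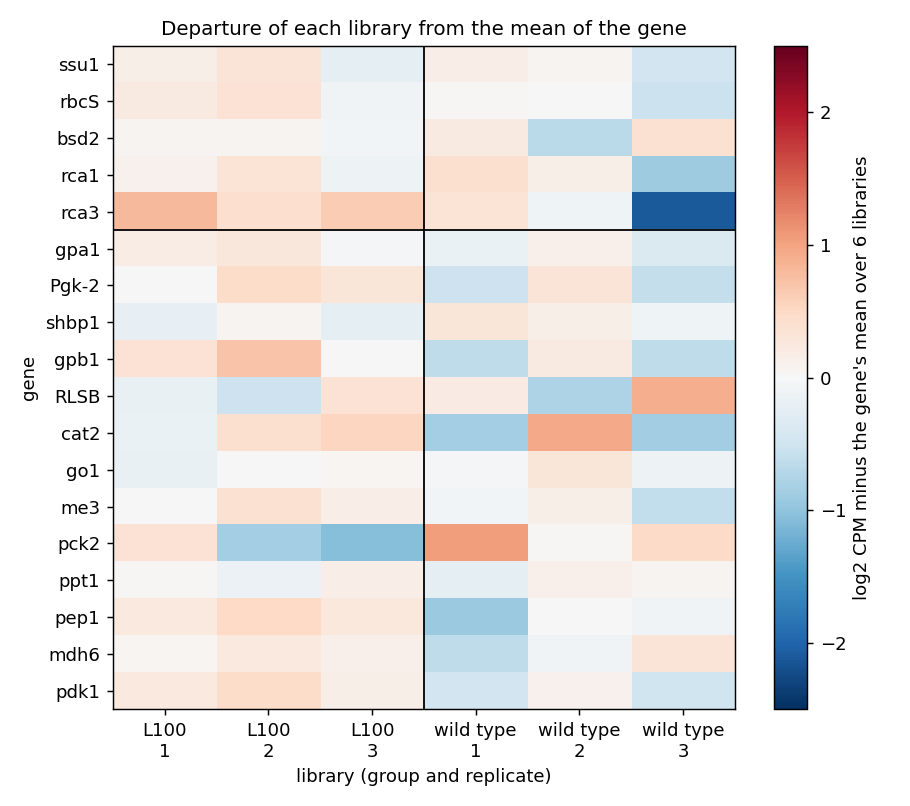
Log2 CPM of each gene in each library minus the mean of the gene over the 6 libraries (red above, blue below), with L100 left of the vertical line and the 5 genes of interest above the horizontal one. Wild type replicate 3 is lowest in ssu1, rbcS, rca1 and rca3, where rca3 departs by -2.10, and highest in bsd2 and RLSB. Among the other genes drawn it is also lowest in me3, gpa1, Pgk-2, pdk1 and cat2, and highest in mdh6.

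The other steps of the Calvin-Benson cycle were covered by few genes with a matching name. These gave 0 calls in either direction with edgeR and with DESeq2, and by both tools 0 genes at an unadjusted p under 0.05. Over all 18702 tested genes edgeR called 0.834%, and 1878 had an unadjusted p under 0.05. With so few genes, 0 calls therefore says little about the cycle. Of 5 genes matched by name and reported 4 were tested, 3 with a positive and 1 with a negative log2 fold change. Their median was 0.37, against -0.03 over all tested genes, and was 0.23 without wild type replicate 3. Without wild type replicate 2 it was 0.63, with 2 of the 4 genes at an unadjusted edgeR p under 0.05 and none called. Low p-values rose over all genes in that fit, with 3524 at an unadjusted edgeR p under 0.05, against 1878 with all libraries. The genes gpb1 (GRMZM5G845611) and gpa1 (GRMZM2G337113) encode subunits of the plastid glyceraldehyde phosphate dehydrogenase, and gpb1 had the largest difference of the list. It had 10791, 13770 and 8360 CPM in L100 replicates 1 to 3, against 5445, 9831 and 5459 CPM in wild type replicates 1 to 3. Its log2 fold change was 0.67 ± 0.39 (SE) and its edgeR adjusted p 0.644. The groups overlapped, with wild type replicate 2 above L100 replicate 3.

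The remaining Calvin-Benson genes differed less. The gene gpa1 averaged 8099 ± 914 CPM in L100 and 6726 ± 1166 CPM in wild type (SD, n = 3 each). The phosphoglycerate kinase gene Pgk-2 (GRMZM2G382914) averaged 727 ± 109 CPM in L100 and 526 ± 202 CPM in wild type. The sedoheptulose bisphosphatase gene shbp1 (GRMZM5G814089) averaged 442 ± 53.7 CPM in L100 and 523 ± 72.8 CPM in wild type, and its log2 fold change was -0.24 ± 0.27 (SE). For these genes edgeR adjusted p-values ranged from 0.719 to 0.824.

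Photorespiration, which recycles the product of Rubisco's reaction with oxygen, was represented by 2 tested genes, neither called. The glycolate oxidase gene go1 (GRMZM2G129246) averaged 701 ± 58.5 CPM in L100 and 750 ± 124 CPM in wild type. The catalase gene cat2 (GRMZM2G090568) averaged 518 ± 126 CPM in L100 and 427 ± 335 CPM in wild type (SD, n = 3 each).

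Marker genes of both leaf cell types were detected in every library. In a whole leaf, fewer cells of a type and less RNA per cell cannot be told apart. Of 2 genes listed as bundle sheath markers, 1 had a positive and 1 a negative log2 fold change, and the groups overlapped in both. The less abundant, pck2, was matched by symbol only, and whether it marks the bundle sheath was not checked. The NADP-malic enzyme gene me3 (GRMZM2G085019), which releases carbon dioxide to Rubisco in the bundle sheath, had 10647, 13699 and 11834 CPM in L100 replicates 1 to 3, against 9996, 11632 and 6845 CPM in wild type replicates 1 to 3. Its lowest library was wild type replicate 3, as in the small subunit genes and in the mesophyll marker pdk1. The phosphoenolpyruvate carboxykinase gene pck2 (GRMZM5G870932) averaged 66.2 ± 38.1 CPM in L100 and 128 ± 45.3 CPM in wild type (SD, n = 3 each, edgeR adjusted p = 0.547). It was lowest in L100 replicate 3 and lay at -0.06 on the log2 scale in wild type replicate 3 from the mean of the other wild type libraries.

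Of 4 mesophyll markers all had a positive log2 fold change, as did 8894 of 18702 tested genes, and none was called. That of ppt1 was only 0.03, with an interval from -0.69 to 0.74. In pep1 (GRMZM2G083841), the carboxylase that makes the first C4 acid, and pdk1 (GRMZM2G306345), the dikinase that renews its substrate, all L100 libraries lay above all wild type libraries, which over all tested genes held for 7.69%. The lowest L100 and highest wild type values were 34611 and 29254 CPM for pep1, and 44958 and 44077 CPM for pdk1. The other markers were the malate dehydrogenase gene mdh6 (GRMZM2G129513), at 3520 ± 250 CPM in L100 and 3020 ± 959 CPM in wild type, and ppt1 (GRMZM2G047404), at 5.12 ± 0.544 CPM in L100 and 5.03 ± 0.629 CPM in wild type (SD, n = 3 each). The part of these cell types in the values of the 5 genes was not tested.

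**Figure D4:**
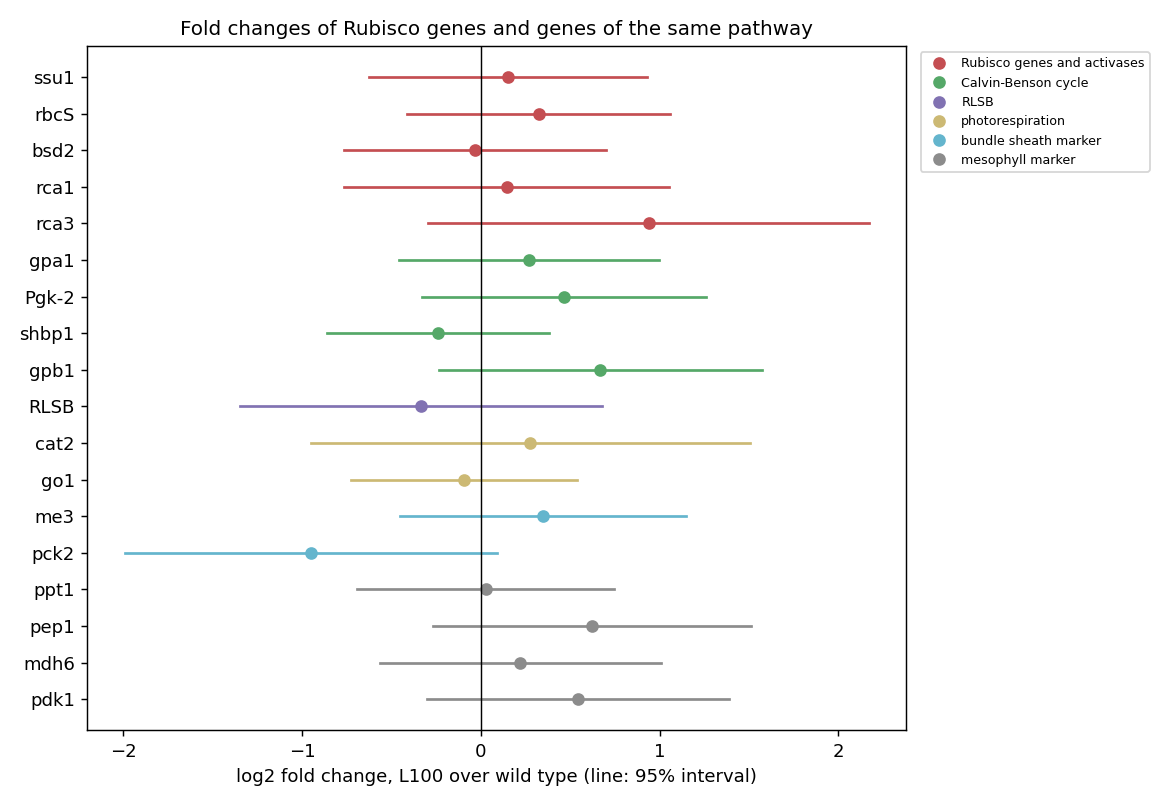
Log2 fold change of L100 over wild type (points) with its 95% interval from edgeR (lines) for the 5 genes of interest, Calvin-Benson genes, RLSB, photorespiration genes and markers of both leaf cell types. Every interval crosses 0, and the widest upper end among the 5 genes is that of rca3, at 2.17.

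The genes most like each of the 5 were looked for among 502 genes with a name and a mean of at least 50 CPM, by Pearson correlation of log2 CPM over the 6 libraries. This is a description over few libraries: 1.79% of the 502 had an r above 0.9 with ssu1, 3.98% with rbcS, 2.39% with bsd2, 5.98% with rca1 and 6.77% with rca3. Nearest to ssu1 were cys1 (GRMZM2G082185, r = 0.993) and bHLH172 (GRMZM2G093744, r = 0.956). Nearest to rbcS were cap1 (GRMZM2G056014, r = 0.978) and NRH2 (GRMZM2G085960, r = 0.973). For bsd2 they were the cellulose synthase gene CesA-4 (GRMZM2G424832, r = 0.984) and AS (GRMZM2G074589, r = 0.978). For rca1 they were HO-1 (GRMZM2G101004, r = 0.993) and SO (GRMZM2G114739, r = 0.988), and for rca3 sbp17 (GRMZM2G156756, r = 0.989) and srp32 (GRMZM2G436092, r = 0.983). None of these 10 genes was called between the lines (edgeR adjusted p from 0.665 to 0.994), against 0.834% of all tested genes. All 10 were picked for likeness to genes that were not called, so this outcome was largely set by the choice. They share libraries and depth with the genes they were matched to.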

How the data were processed

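Per the labels, leaves were frozen in liquid nitrogen, and Trizol RNA went into Illumina libraries. Bowtie 0.12.2 and the build B73 RefGen_v3 are named in the submitters' processing notes; no source used here gives the tool that counted. The authors deposited, per library, estimated counts per gene, FPKM values, a scaled signal (the count times 1 factor per library, not used) and a gene length. The estimated counts were whole within 0.001 for all but 0.225% to 0.399% of values per library and were rounded. The floor of 3 counts was 0.302 to 0.465 CPM; intervals and floors cover counting error only. No libraries repeated each other (chi-square per gene of 13.2 to 109 between libraries of a group, where sampling noise gives about 1).

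L100 and wild type were compared with edgeR 4.0.16 in R 4.3.3 (quasi-likelihood test, TMM, filterByExpr, no block, Benjamini-Hochberg over 18702 genes, threshold 0.05), after a check on simulated counts. The simulation gave all genes and both lines the same dispersion, so it does not cover the larger spread among wild type libraries. Standard errors were obtained from the log2 fold change and its F statistic. All 5 genes passed the filter. Ratios were tested by exact permutation; 2 pairs were planned, and 8 were added after values were seen. Alternatives were DESeq2 1.42.0, RLE scaling, scaling without the 20 most abundant genes, no filter, a replicate block, each library left out and, for ratios, FPKM.

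Gene names came from RefSeq genes of Zm-B73-REFERENCE-NAM-5.0. This build is later than that of the files, so no coordinates are given and no sequences are shown; 18255 of 39628 IDs matched 1 record. The genes and lists were chosen with earlier results of these data known. Lists were matched by symbol. Genes whose other symbols showed a different protein were dropped before values were seen. Called list members or, with none called, the most abundant were named, with the 2 most similar genes per gene of interest; RLSB was added later. A further list gene is not reported here.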

Additional observations from a re-analysis of the deposited data

How the results depend on the processing

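Over 55 repeats of the 5 gene results under alternative settings, none gave an adjusted p under 0.05 and 6 turned the sign. The bsd2 log2 fold change turned to 0.031 with the replicate number as a block, 0.013 when L100 replicate 3 was left out, 0.062 without wild type replicate 1 and 0.17 without its replicate 3. Without wild type replicate 3, ssu1 turned to -0.0196 and rca1 to -0.15. With 1 library left out, the log2 fold changes ranged from -0.02 to 0.29 for ssu1, 0.16 to 0.44 for rbcS, -0.28 to 0.17 for bsd2, -0.15 to 0.40 for rca1 and 0.49 to 1.43 for rca3. The rca3 over rca1 difference ranged from 0.66 to 1.25, and that of ssu1 over rbcS from -0.20 to -0.15. The count of called genes was 156 with edgeR, 570 with DESeq2, 5 in edgeR with the replicate block and 0 to 222 with 1 library left out (6 without L100 replicate 1; 0 without replicate 2 or 3 of L100, where 1295 and 1282 genes had an unadjusted p under 0.05). The cause was not tested. The 4 tested genes of the Calvin-Benson list had 0 calls under every alternative. With so few genes, and with 0 to 570 calls over all genes in these settings, this says little about the cycle. Replicate numbers are shared between the lines, but the labels do not say that a number marks a shared plot, day or plant. The main fit therefore did not pair libraries by number. Deviations of libraries of the same number had correlations of 0.40, 0.35 and 0.01, which cannot decide whether the libraries are paired. Wild type replicates 1 and 2 did correlate best with the L100 library of the same number. The best partner of wild type replicate 3 was L100 replicate 1. With the block, rca3 had a log2 fold change of 1.19 and an adjusted p of 0.428. The precision of the rca3 fold change is limited by the spread among wild type libraries, a coefficient of variation of 65.4% against 13.5% in L100.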
